A study of Mus musculus with 2 samples.

Results

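The cytosolic sulfotransferase genes Sult1e1, Sult1a1, Sult1c2 and Sult1d1 were examined in single-cell RNA sequencing of postischemic mouse kidney. They are 4 of the 32285 genes listed in the deposited tables and 4 of 21 cytosolic sulfotransferases looked for there. The 4 genes were chosen by their UMIs and detection in proximal tubule (PT) cells of the same 2 libraries, so their differences between the libraries in PT-like cells are given as a description, with no test. A UMI is a tag that marks 1 captured RNA molecule.

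The study asked how JPI-289, an inhibitor of poly(ADP-ribose) polymerase, changes the kidney after renal ischemia-reperfusion injury (IRI). Both kidneys came from 9-week-old male C57BL/6 mice that underwent bilateral renal IRI and were sacrificed 24 h after surgery. The control mouse received saline and the other received JPI-289 at 100 mg/kg, each into the peritoneal cavity just before blood flow was restored. Each condition was 1 mouse and 1 library, there was no uninjured kidney among these samples, and the drug cannot be told apart from any other difference between the 2 mice or the 2 preparations.

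Cytosolic sulfotransferases move a sulfonate group from the donor PAPS onto small molecules such as phenols, catecholamines and steroids, which usually makes them more water-soluble and often inactive. PAPS is made from sulfate and ATP by the PAPS synthases, and the sulfate of the body is conserved by transporters of the proximal tubule. Sult1e1 is the estrogen sulfotransferase, Sult1a1 a phenol sulfotransferase with a broad range of substrates, and Sult1d1 a sulfotransferase of catecholamines and other phenols. Sult1c2 belongs to a less studied branch of the same family.

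The control library held 38328760 UMIs and the JPI-289 library 35548396, and the 3741 and 5043 cells that passed the filters had median totals of 2063 and 1866 UMIs. The classes below carry the ending -like because they were named from marker genes. The control had 1773 PT-like cells and JPI-289 had 1649. All 9 PT markers were detected in them in both libraries, and their summed level was 16839 UMIs per 1000000 (CPM) in control cells and 4819 in JPI-289 cells. The 7 markers of injured PT, among them Havcr1 (kidney injury molecule 1), summed to 458 and 2053 CPM. The 7 clusters of PT-like cells each took at least 90% of their cells from 1 library, so each PT-like cluster was largely of 1 library. The cluster with 886 JPI-289 cells scored 1.39 for injured PT and 1.35 for PT. When each library was reclustered, Umod or Aqp2, markers of other tubule classes, were among the leading genes of some PT-like clusters. These included a control cluster of 487 cells and JPI-289 clusters of 396 and 219 cells, so the PT-like name is less sure there. Cells called in both libraries shared 30 barcodes.

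Levels are given as CPM, the UMIs of a gene per 1000000 UMIs of its class. Each interval in this section is a 95% counting interval, which covers counting error and not the spread between mice. For CPM and ratios it treats each UMI as independent, so the spread between cells is left out too. Such an interval is too narrow where few cells hold many of the UMIs, as for Sult1e1 below. Across the 11303 genes with at least 20 UMIs in PT-like cells, log2(JPI-289/control) had a median of -0.19. Of these genes 9.16% were at least 2-fold higher and 23.6% at least 2-fold lower in the JPI-289 library, and these shares stand behind each count of genes past 2-fold in PT-like cells.

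Sult1e1 was almost undetected in the control kidney and readily detected in the PT-like cells of the JPI-289 kidney. The PT-like cells of the control mouse held 2 UMIs of Sult1e1 and those of the JPI-289 mouse held 427. This was 0.247 CPM (interval 0.0299 to 0.892) against 58.3 (52.9 to 64.1), a log2 ratio of 7.56 (6.02 to 10.93). Both control UMIs came from 1 cell. With JPI-289, 121 of 1649 PT-like cells had a UMI, of which 65 had 1, 19 had 2 and 37 had 3 or more.

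The Sult1e1 UMIs were unevenly spread over these cells. The highest cell held 50 UMIs and the next 29, and the 10 highest cells together held 187 UMIs, or 43.8% of the total. The highest cell had 12964 UMIs in all, so Sult1e1 made up 0.386% of its RNA. For comparison, the 10 highest cells for Sult1d1 in the same library held 6.96% of its UMIs.

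**Figure D1:**
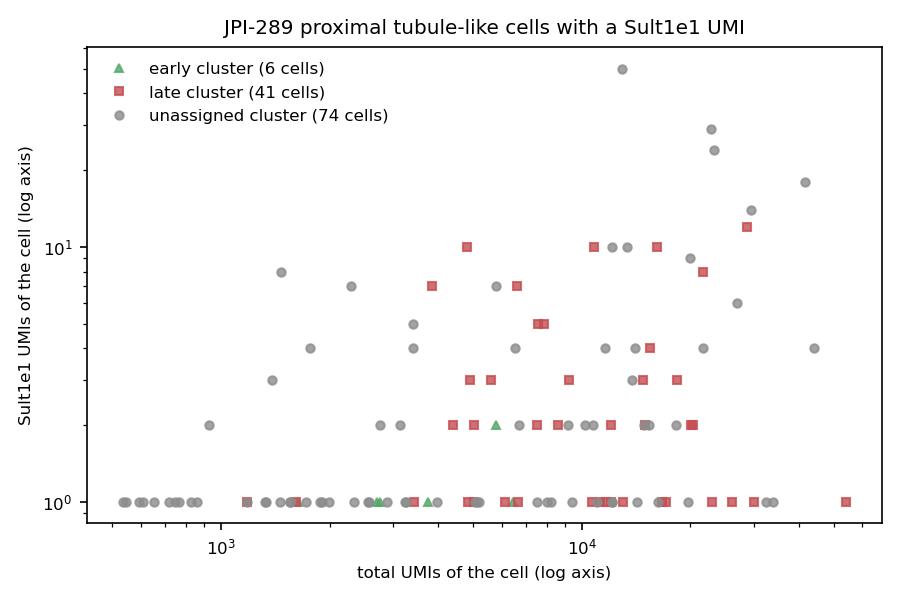
Each point is 1 of the 121 PT-like cells of the JPI-289 library with a Sult1e1 UMI, by its total UMIs (horizontal, log axis) and its Sult1e1 UMIs (vertical, log axis), with the marker shape showing whether its cluster was assigned to the early or late PT segment. Cells with 1 UMI span the depth range, and those with 10 or more, up to 50, lie in the late or unassigned clusters.

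Sult1e1 was present in JPI-289 PT-like cells of every depth. In JPI-289 PT-like cells with 500 to 1000 UMIs, 12 UMIs of Sult1e1 gave 33.8 CPM (17.5 to 59.0). The level was 57.2 in cells of 1000 to 2000 UMIs, 48.0 in cells of 2000 to 5000, 41.4 in cells of 5000 to 10000 and 69.3 in deeper cells. All 5 depth classes of the control library had no Sult1e1 UMI except that of 5000 to 10000 UMIs, which held the 2. With every cell thinned to 1000 UMIs, 0 of 1335 control cells and 38 of 1137 JPI-289 cells had a UMI, or 3.34% (2.38% to 4.56%), and the count of 0 leaves an upper Clopper-Pearson bound of 0.276% for the control.

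Outside PT-like cells Sult1e1 stayed low in both libraries. The other named classes with at least 50 cells had no UMI in the control library, which a count of 3 puts below 1.53 CPM in endothelial cell (EC)-like cells and below 35.4 in podocyte-like cells, the best and worst measured of these. In the JPI-289 library they had from 0 UMIs in podocyte-like and intercalated-like cells to 11 in neutrophil-like cells, at most 8.83 CPM, reached on 2 UMIs in red blood cell-like cells. Cells of clusters left unnamed held 2 control UMIs, both in 1 of 114 cells, and 8 JPI-289 UMIs. This was 2.99 CPM (0.362 to 10.8) against 5.89 (2.54 to 11.6), a log2 ratio of 0.75 (-1.34 to 4.25) that spans 0. PT-like cells held 89.1% of the Sult1e1 UMIs of the called JPI-289 cells and 50% of the few in the called control cells.

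Free RNA, released from broken cells into the suspension, puts some UMIs into every droplet. JPI-289 barcodes with under 100 UMIs held 12 Sult1e1 UMIs, 34.9 CPM. Per 100 UMIs of the 9 PT markers, Sult1e1 had 1.36 UMIs in those barcodes, 1.21 in PT-like cells, 1.60 in neutrophil-like cells and 1.01 in EC-like cells. Macrophage-like cells had 2.42 and principal-like cells 2.22, on 7 and 6 Sult1e1 UMIs. Whether the few UMIs outside PT-like cells were free RNA was not tested.

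Within the proximal tubule, Sult1e1 was uneven among clusters of the JPI-289 library. Reclustering the PT-like cells of each library gave 7 JPI-289 clusters with Sult1e1 levels of 7.77 to 102 CPM. The lowest was the early segment cluster, of 272 cells, marked by Slc5a2 (the glucose transporter of the first segments), with 7 UMIs. The late segment cluster, of 124 cells, with Slc7a13 (a transporter of the last segment) at 57.7 CPM, had 127 UMIs of Sult1e1 and 89.3 CPM, a log2 ratio of late over early of 3.43 (2.44 to 4.87).

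The highest level, 102 CPM on 28 UMIs, was in a cluster of 174 cells with a high late segment score. It was left unassigned because haemoglobin genes and Umod, of the thick ascending limb, were among its leading genes. A deep unassigned cluster of 233 cells, led by Neat1 and Malat1, held 213 UMIs, 73.1 CPM.

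The size of the late-over-early difference rested on how segments were assigned. With each cell assigned by its own score, early cells had 296 UMIs and late cells 99, or 58.1 against 76.8 CPM, a log2 ratio of 0.41 (0.06 to 0.74). By that rule 658 of the 1649 JPI-289 cells lay at or near the dividing score, and in the control library 1459 cells were early and 98 late.

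Between libraries, the early clusters had 0 control and 7 JPI-289 UMIs of Sult1e1, 1.90-fold higher in JPI-289 when the control is set at 3 counts. The interval of the log2 ratio began at 0.23 and had no upper end. With segments by cell score, early cells had 2 and 296 UMIs (log2 7.41) and late cells 0 and 99 (log2 6.39). The late clusters had 2 and 127 UMIs, a log2 ratio of 5.74 (4.17 to 9.11). The share of all tested genes at least 2-fold higher in JPI-289 was 20.5% in the early clusters and 22.5% in the late ones. The clusters also differed in quality. Malat1, a nuclear RNA, made up 15.7% of the UMIs of the control early cluster and 0.333% of those of the JPI-289 early cluster, and the late clusters had medians of 3826 and 10376.5 UMIs per cell. The part of these differences in the segment values was not tested.

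Sult1e1 was found with and without the injury marker Havcr1. JPI-289 PT-like cells with a Havcr1 UMI had 349 Sult1e1 UMIs and 69.9 CPM, and those without had 78 and 33.4, a log2 ratio of 1.06 (0.71 to 1.44). In the late cluster the order of the levels was the other way, with 80.0 CPM in cells with Havcr1 and 188 in cells without (log2 -1.26, -1.90 to -0.51). The second value rests on 23 UMIs in 16 cells, of which 6 had a UMI and 1 held 10. Detection of Havcr1 depends on depth, and its part in these values was not tested.

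Sult1e1 and Sult1d1 lie next to each other on mouse chromosome 5 (GRCm38), both on the minus strand. Sult1e1 spans bases 87575969 to 87591594 and Sult1d1 spans 87554645 to 87569027, so their facing ends lie 6942 bases apart. The gene on the other side of Sult1e1, the milk casein gene Csn1s1, had no UMI in PT-like cells of either library. Beyond Sult1d1 lies Sult1b1, another phenol sulfotransferase of the cluster, with 27 control and 20 JPI-289 UMIs (log2 -0.28, -1.20 to 0.60). Of these neighbours Sult1e1 was the only one with a counting interval wholly above 0 between the libraries.

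The bases upstream of both start sites are shown because the CPM ratios of these adjacent genes had opposite signs over all PT-like cells. That of Sult1d1 did not reach 2-fold, and its direction depended on segment and scaling, as given below. They are RefSeq promoter windows (GRCm38.p6, minus strand), shortened to bases outside annotated exons: chr5:87591612-87591861 for Sult1e1 and chr5:87569028-87569256 for Sult1d1. Capitals mark any match to the 3 motifs searched on both strands.
Sult1e1 upstream: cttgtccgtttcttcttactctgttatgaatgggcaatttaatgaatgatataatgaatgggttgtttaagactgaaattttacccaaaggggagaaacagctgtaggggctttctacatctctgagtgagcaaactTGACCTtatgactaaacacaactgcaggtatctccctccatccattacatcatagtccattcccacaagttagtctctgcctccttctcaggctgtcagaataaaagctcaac
Sult1d1 upstream: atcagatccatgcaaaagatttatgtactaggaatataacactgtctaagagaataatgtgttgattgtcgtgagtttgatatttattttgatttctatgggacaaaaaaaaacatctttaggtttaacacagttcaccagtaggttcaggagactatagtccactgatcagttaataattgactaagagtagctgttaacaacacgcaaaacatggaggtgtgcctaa
The motifs were the antioxidant response element core TGACNNNGC, the nuclear receptor site AGGTCA and the TATA box TATAAA, found in 10.2%, 14.0% and 12.4% of 32851 upstream windows of 250 bases. The capitals in Sult1e1 are 1 nuclear receptor site on the opposite strand. The Sult1d1 window, and that of Sult1a1, held no match to the 3 motifs. A match is a description of letters and not a bound site.

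Sult1d1 was the sulfotransferase with the most UMIs in both kidneys, and its level was lower in the JPI-289 library. PT-like cells held 9163 control and 5895 JPI-289 UMIs, 1131 CPM (1108 to 1154) against 805 (784 to 825). The log2 ratio was -0.49 (-0.54 to -0.44), which does not reach 2-fold, and it was -0.30 relative to the median of all genes. With cells thinned to 1000 UMIs, 854 of 1335 control cells (64.0%) and 606 of 1137 JPI-289 cells (53.3%) had a UMI. In neutrophil-like cells, which should lack this tubular gene, 17.5% and 8.93% of thinned cells had a UMI, and the median cell held 1973 and 2036 UMIs in all.

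Against the PT markers the order of the libraries was the other way. Sult1d1 had 6.72 UMIs per 100 PT marker UMIs in control PT-like cells and 16.7 in JPI-289 PT-like cells, the summed marker level being lower there.

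Among PT-like clusters, Sult1d1 ranged from 429 to 1547 CPM among control clusters and from 649 to 1018 among JPI-289 clusters. The late clusters had 1211 and 1018 CPM, a log2 ratio of -0.25 (-0.35 to -0.15). The early clusters had 429 and 649, a log2 ratio of 0.60 (0.40 to 0.80), but this turned to -0.55 when each cell was assigned by its own score. The low control value belonged to the cluster with 15.7% Malat1. Within each library the late cluster was above the early one, by log2 1.5 (1.32 to 1.67) for control and 0.65 (0.51 to 0.79) for JPI-289. With segments by cell score the late-over-early log2 ratio was -0.34 for control and 0.18 for JPI-289.

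Thick ascending limb-like cells had the next highest Sult1d1 level of the classes with at least 50 cells in each library. They held 518 control and 614 JPI-289 UMIs, 545 and 499 CPM, with a log2 ratio of -0.13 whose interval, -0.30 to 0.04, spans 0. Per 100 PT marker UMIs this class had 50.6 (control) and 131 (JPI-289), against 9.12 and 23.2 in barcodes under 100 UMIs. Intercalated-like cells had 27.2 and 72.5 by the same ratio. EC-like, macrophage-like and neutrophil-like cells had 7.95 to 9.99 under saline and 20.7 to 22.9 under JPI-289. With free RNA subtracted, control neutrophil-like cells kept 111 of 182 CPM of Sult1d1 and control EC-like cells 112 of 148. The part of free RNA in the values of these classes was not tested.

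Sult1c2 was lower in JPI-289 PT-like cells at every depth. They held 443 control and 93 JPI-289 UMIs, 54.7 CPM (49.7 to 60.02) against 12.7 (10.2 to 15.6), a log2 ratio of -2.10 (-2.45 to -1.78). Against the PT markers, whose summed level was also lower in JPI-289, the libraries were much closer. Sult1c2 had 0.325 UMIs per 100 PT marker UMIs in control PT-like cells and 0.263 in JPI-289 PT-like cells. The control levels in the 5 depth classes ran from 40.4 to 76.5 CPM and the JPI-289 levels from 8.17, on 4 UMIs, to 17.8. These classes are cells of the same 2 mice, and the share of all genes that separate in this way was not counted. The gene was spread thinly, with at most 6 UMIs in a control cell and 2 in a JPI-289 cell. Thinned to 1000 UMIs, 88 control PT-like cells (6.59%) and 14 with JPI-289 (1.23%) had a UMI, while 0 of 177 control and 0 of 582 JPI-289 neutrophil-like cells did.

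The lower Sult1c2 level was present in each segment. The early clusters had 27 and 11 UMIs (log2 -1.55, -2.75 to -0.53) and the late clusters 70 and 29 (log2 -1.19, -1.89 to -0.56). Of all genes tested, 46.1% were at least 2-fold lower in JPI-289 in the early clusters and 16.2% in the late ones. The control clusters ran from 35.97 to 89.98 CPM and the JPI-289 clusters from 3.93, on 1 UMI, to 20.4. The share of all genes separated by cluster was not counted either. Outside PT-like cells Sult1c2 had at most 9 UMIs in a class. Sult1c2 lies on chromosome 17, bases 53829637 to 53846339 of the minus strand, and its neighbours Sgo1 and Sult1c1 had at most 1 UMI in PT-like cells of each library.

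**Figure D2:**
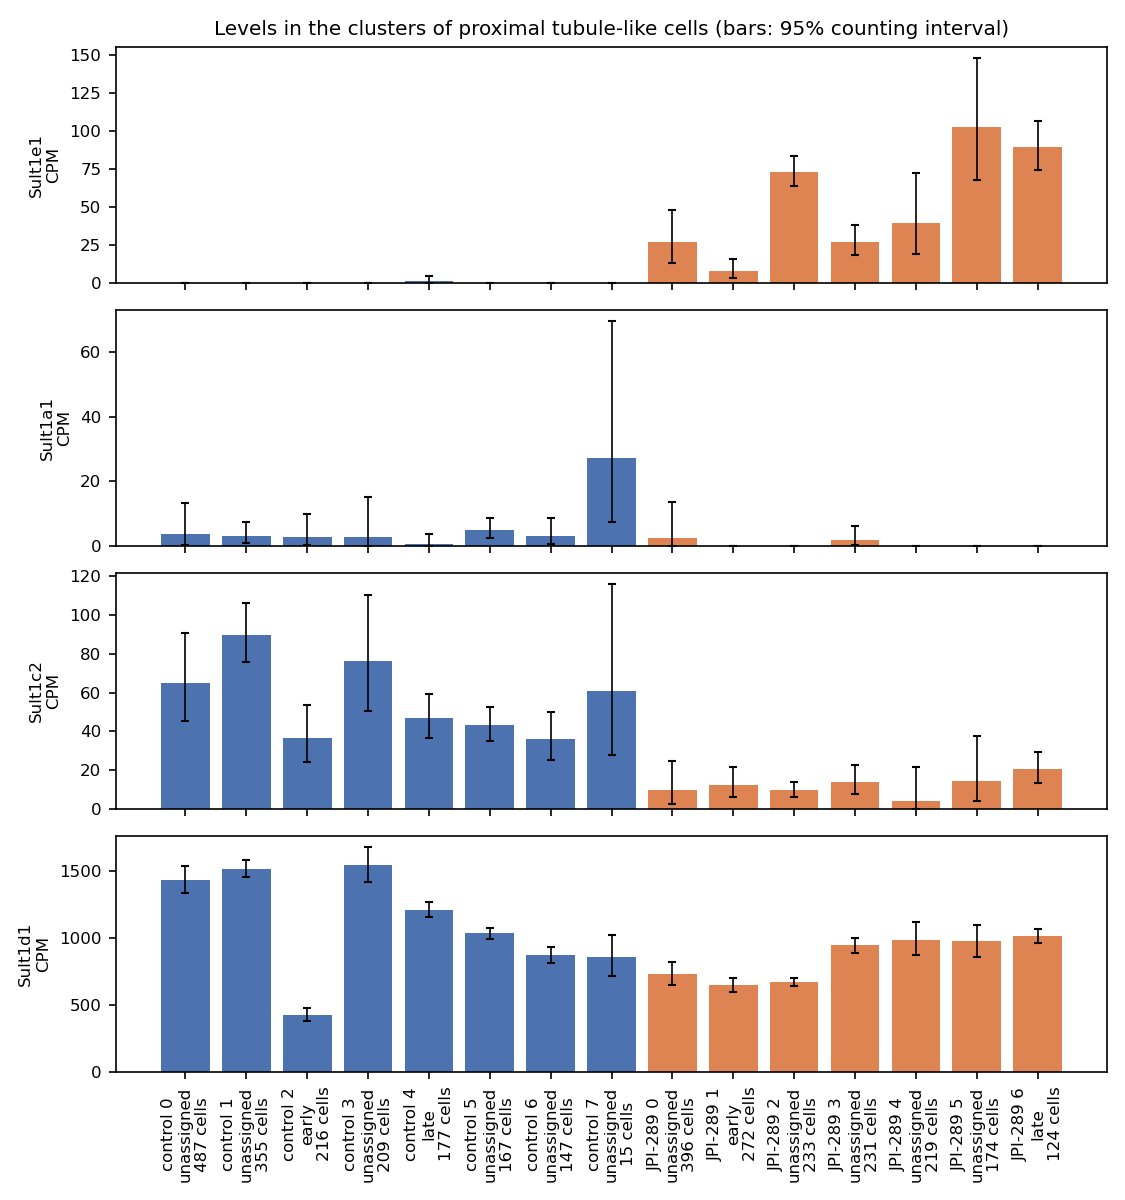
Bars give CPM of each gene in the 15 clusters of PT-like cells, 8 from the control (blue) and 7 from the JPI-289 library (orange), each with its assigned segment and number of cells, and error bars are 95% counting intervals (none is drawn at 0 UMIs). Sult1e1 appears in all 7 JPI-289 clusters and in 1 control cluster, Sult1c2 is higher in every control cluster, and Sult1d1 overlaps between libraries. Of all genes tested in PT-like cells, 23.6% were at least 2-fold lower in JPI-289, and the share separated by cluster was not counted.

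Sult1a1 had its most UMIs in EC-like cells in each library, and its level there was lower in JPI-289. EC-like cells held 175 UMIs under saline and 44 with JPI-289. This was 89.1 CPM (76.4 to 103) against 25.6 (18.6 to 34.4), a log2 ratio of -1.79 (-2.31 to -1.31). Of 9722 genes tested in EC-like cells, 18.6% were at least 2-fold lower and 5.23% at least 2-fold higher in JPI-289. Barcodes under 100 UMIs had 4.54 and 2.91 CPM, well below either level. By level rather than count, intercalated-like cells of the JPI-289 library, at 36.1 CPM (16.5 to 68.5) on 9 UMIs, were above its EC-like cells, with intervals that overlap.

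Both EC-like clusters showed the lower level. The cluster led by Plvap, Kdr and Emcn, with 222 control and 262 JPI-289 cells, had 119 and 32.3 CPM on 144 and 39 UMIs. The cluster led by Apln, Esm1 and Edn1, genes of activated endothelium, with 277 and 307 cells, had 41.3 and 9.81 on 31 and 5 UMIs. In both libraries the Plvap cluster stood above the other. Its cells were also deeper, with a median of 3697 UMIs against 903, and the part of depth was not tested.

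Stroma-like cells had 54 control and 2 JPI-289 UMIs of Sult1a1, 62.5 against 4.90 CPM (log2 -3.36, -6.75 to -1.75). Macrophage-like cells had 37 and 7, 30.9 against 5.15 CPM (log2 -2.51, -4.00 to -1.40). All macrophage UMIs came from the cluster led by Cd74 and C1qa, and the cluster led by Fn1, Arg1 and Ccl2 had none in 69 control and 131 JPI-289 cells. PT-like cells held only 29 and 3 UMIs, 3.58 and 0.409 CPM (log2 -2.93, -5.49 to -1.44), and 4 of the 29 came from a control cluster of 15 cells led by EC genes. That ratio was -1.94 when each cell had equal weight.

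In several further classes with at least 50 cells in each library the interval of the Sult1a1 ratio spanned 0. Among them were principal-like cells, with 4 control and 1 JPI-289 UMIs, podocyte-like cells, with 5 and 0, and neutrophil-like cells, with 0 and 1. Thick ascending limb-like cells had 9 control and 25 JPI-289 UMIs (log2 1.05, -0.05 to 2.39), intercalated-like cells 8 and 9, which was 15.9 and 36.1 CPM (log2 1.17, -0.37 to 2.75), and distal tubule-like cells 15 and 13 (log2 -0.49, -1.68 to 0.68). Sult1a1 lies on chromosome 7, bases 126672865 to 126676432 of the minus strand, and overlaps the end of Sgf29 on the plus strand. Sgf29, a subunit of a chromatin complex, had 150 and 162 UMIs in PT-like cells (log2 0.26, -0.07 to 0.59), and Slx1b, on the other side, had 34 and 17 (log2 -0.83, -1.79 to 0.02).

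**Figure D3:**
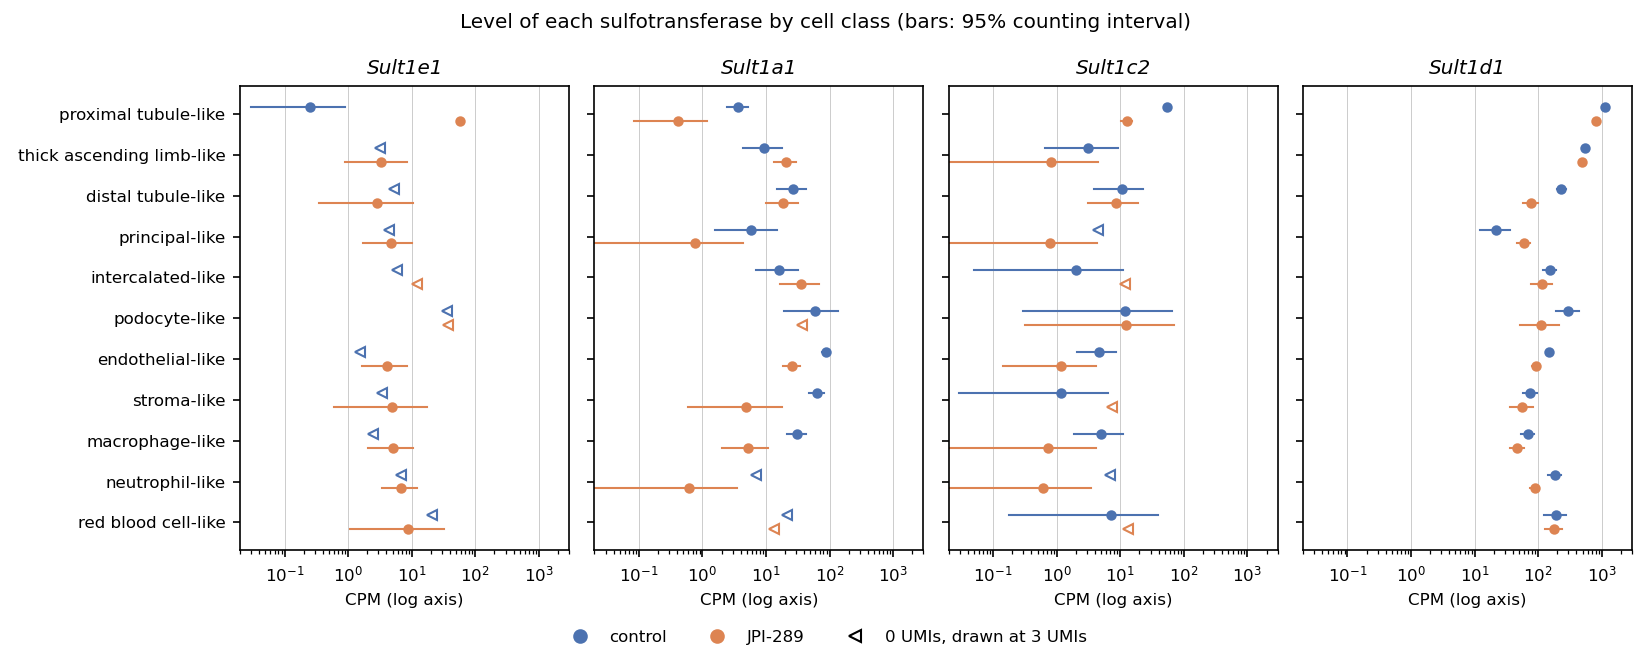
Points give CPM (log axis) of each gene in 11 cell classes of the control (blue) and JPI-289 (orange) libraries, with bars for 95% counting intervals and open triangles for classes with 0 UMIs, drawn at 3 UMIs. Sult1e1 stands out in JPI-289 PT-like cells alone (58.3), Sult1a1 is highest in control EC-like cells (89.1), Sult1c2 in control PT-like cells (54.7), and Sult1d1 in PT-like cells of both libraries (1131 and 805).

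Of the 21 cytosolic sulfotransferases, 7 had any UMI in PT-like cells and 5 had at least the 20 needed for a ratio, the 4 described here and Sult1b1. Sult1e1 was at least 2-fold higher in JPI-289 and Sult1a1 and Sult1c2 at least 2-fold lower. Sult2b1, which sulfates cholesterol, had its highest count of any class in collecting duct principal-like cells in both libraries. These cells held 38 of 128 control and 10 of 66 JPI-289 UMIs in called cells, or 55.5 and 7.77 CPM. Sult5a1 had most in stroma-like cells, 25 and 5 UMIs, and Sult2a3 in intercalated-like cells, 12 and 3. The 8 Sult2a genes are close copies of each other, so reads could be split between them.

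Transcripts of 3 of 5 measured sulfate transporters were at least 2-fold lower in JPI-289 PT-like cells. Slc13a1, the sodium-sulfate cotransporter of the apical membrane, had 4123 and 258 UMIs, 509 against 35.2 CPM (log2 -3.85, -4.04 to -3.67). Slc26a1, the sulfate exchanger of the basolateral membrane, had 149 and 9 UMIs (log2 -3.83, -5.06 to -2.94). Slc26a6 had 26 and 0. Slc26a2, with 44 and 28 UMIs, and Slc26a11, with 36 and 20, had log2 ratios of -0.50 and -0.69 with intervals that span 0.

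Of 6 genes of PAPS supply and turnover, 1 was past 2-fold. Papss2, a PAPS synthase, had 791 and 246 UMIs, 97.6 against 33.6 CPM (log2 -1.54, -1.75 to -1.33). The summed level of the PT markers was also lower in these JPI-289 cells, 16839 against 4819 CPM. In proportion that difference was larger than the one of Papss2. Papss1, the other synthase, had a log2 ratio of -0.87 and Bpnt1, which clears the used donor in the cytosol, of -0.63. Impad1, the enzyme with the same task in the Golgi, was at 0.88 and Slc35b3, which carries PAPS into the Golgi, at 0.50. The intervals of these 4 ratios did not reach 0. Slc35b2, another PAPS carrier of the Golgi, had 226 and 231 UMIs and a log2 ratio of 0.18 (-0.09 to 0.45), which spans 0.

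Other conjugating and desulfating enzymes were measured for the same cells. Of 13 measured genes listed for glucuronidation, which acts on many of the same substrates, Ugdh was the 1 at least 2-fold higher. The 6 at least 2-fold lower were all Ugt genes by symbol, whose sugar donors were not examined here. Ugdh, which is no transferase but makes the glucuronic acid donor, had 869 and 2226 UMIs (log2 1.5, 1.39 to 1.62). Ugt2b34 had 436 and 41 (log2 -3.25) and Ugt8a 262 and 72 (log2 -1.71). Ugt2b38, with 1930 and 1056 UMIs, was at -0.72, Ugt3a2 at 0.61 and Ugt3a1 at 0.71. The Ugt1a genes share exons, so their counts are uncertain.

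None of 11 measured sulfatase genes was 2-fold higher and 3 were 2-fold lower, Arsa, Arsg and Sgsh. Arsa had 31 and 7 UMIs (log2 -1.93, -3.43 to -0.79) and Arsg 47 and 19 (log2 -1.14, -2.01 to -0.37). Sgsh had 25 and 11 (log2 -1.004, -2.21 to 0.04), with an interval that spans 0. Relative to the median of all genes, Arsg was at -0.95 and Sgsh at -0.81, which do not reach 2-fold. The lysosomal sulfatases Arsb, Galns and Ids had log2 ratios of -0.81, -0.55 and -0.59, and Sumf1 and Sumf2, the sulfatase activator and its paralog, had 0.39 and 0.21 with intervals that span 0. Of 8 measured Golgi sulfotransferases, Tpst2, which sulfates protein tyrosines, was 2-fold higher with 96 and 181 UMIs (log2 1.06, 0.70 to 1.43). Gal3st1, which makes sulfatide, was lower with 108 and 16 (log2 -2.57, -3.47 to -1.85), as was Chst7. The heparan and chondroitin sulfotransferases Ndst1, Hs6st1 and Chst11 had 0.37, -0.45 and -0.65.

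Of 12 listed genes that make, bind or convert estrogens, the substrates for which Sult1e1 is named, 4 were measured. Hsd17b2, which oxidises estradiol to estrone, had 29 and 112 UMIs (log2 2.08, 1.49 to 2.74) and was the only one of these 4 past 2-fold. Hsd17b4, Hsd17b11 and Hsd17b12 had -0.40, -0.31 and 0.07. Over all lists, 52 genes were measured, 4 were at least 2-fold higher and 17 lower, or 7.69% and 32.7%, beside 9.16% and 23.6% of all genes. Among genes with at least 100 UMIs, 4 of 35 pathway genes were at least 2-fold higher and 7 lower. These were 11.4% and 20%, beside 9.24% and 18.7% of 8627 genes. The share higher was thus above that of all genes at this cut, and the gap for the share lower was narrower. Sult1e1, chosen from these same data, is among the higher genes at both cuts, so the order of the shares higher is not read as a result. With at least 20 UMIs, the median log2 ratio of the pathway genes was -0.55, beside -0.19 over all genes.

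**Figure D4:**
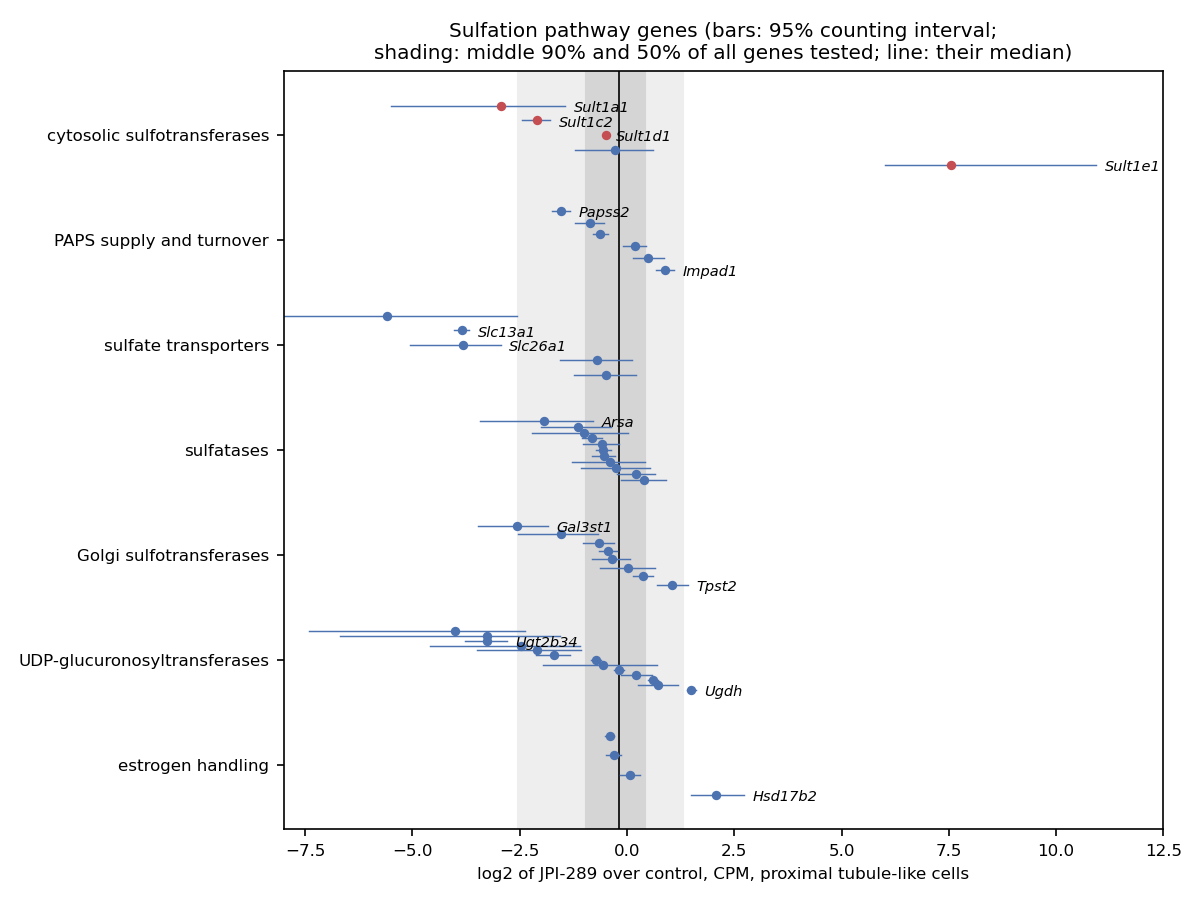
Points give log2(JPI-289/control) in PT-like cells for the 52 measured genes of 7 sulfation and conjugation lists, with 95% counting intervals, the 4 sulfotransferases in red, and shading for the middle 90% (-2.53 to 1.31) and 50% (-0.95 to 0.42) of all 11303 genes. Sult1e1 lies far to the right at 7.56, and Slc13a1 and Slc26a1 to the left at -3.85 and -3.83. Ugt1a2, at -4.01, and Slc26a6, at -5.58, lie further left. The interval of Slc26a6, with 0 JPI-289 UMIs, has no lower end.

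The genes with the pattern most like each sulfotransferase were found by Pearson correlation of log2(CPM + 10) over the 23 combinations of cell class and library with at least 50 cells. The points share libraries and depth, so r is a description. They include the PT-like cells of both libraries, so the PT-like ratios of genes chosen this way are not independent of the choice. For Sult1e1 the genes were Cyp2d12 (r 0.91), Cyp2d9 (0.86), Slco1a1 (0.81), Cyp2a4 (0.81) and Sgtb (0.75). Sult1e1 was at 58.3 CPM in JPI-289 PT-like cells and at most 8.83 at the other points, so its r rests largely on that point. Cyp2d12 had 14 control and 225 JPI-289 UMIs in PT-like cells (log2 4.10), and Cyp2d9 had 20 and 265 (log2 3.84). Both are members of a cytochrome P450 family of close copies, as is Cyp2a4 of another, so their counts are uncertain. Cyp2a4 had 98 and 220 UMIs (log2 1.31), the organic anion transporter Slco1a1 had 57 and 142 (log2 1.45) and Sgtb had 75 and 275 (log2 2.01).

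For Sult1c2 the 5 genes were Acox2, Nat8, Slc17a3, Slco1a6 and Hgd, with r from 0.87 to 0.89 and PT-like log2 ratios from -2.55 to -1.54. For Sult1d1 they were Hoga1, Ttc36, Ggt1, Slc51b and Enpp2, with r from 0.85 to 0.88 and ratios from -1.79 to -0.19. Those for Sult1a1 included Pold2, Tpra1, Alg3 and Ifi27, with r from 0.79 to 0.82.

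Joint detection in single cells was also counted. Among thinned JPI-289 PT-like cells, 22 of 38 with Sult1e1 also had Sult1d1 (57.9%), against 53.1% of cells without Sult1e1, and none of the 38 had Sult1c2, which 14 of all 1137 cells had.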

How the data were processed

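Single-cell RNA sequencing (5′ chemistry) was measured in 1 control and 1 JPI-289 kidney. The deposited files hold raw UMI counts per gene and barcode that the authors made with Cell Ranger 5.0.1 on the mm10 reference, with no cells called or removed; the barcode and gene name files give labels, not measurements. Their cell annotation was not used here, so classes were rebuilt and shares may differ from those of the study.

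Cells were called by total UMIs and then by departure from the profile of empty barcodes (at least 500 UMIs, false discovery rate 0.01), and those over 50% mitochondrial UMIs were removed. Leiden clustering (scanpy 1.11.5, leidenalg 0.10.2, resolution 1, 2000 variable genes without the sulfation genes, 30 components) gave clusters, named from marker lists. Naming and segment rules were set after the clusters were seen, and each cluster kept its name only with at least 3 detected markers. A doublet caller marked 8 of 8784 cells and so had not worked; removal of the 412 cells with the highest scores was an alternative.

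UMIs were summed per class and library, 0.5 UMI was added before the log, and exact binomial or Poisson 95% intervals were computed. With 1 library per group no test was possible, and the Wilcoxon test over cells that the study used was not repeated because cells of 1 mouse are not replicates. Genes needed 20 UMIs for a ratio. Segments were clusters whose best score was a segment score of at least 0.5, at least 0.25 above that of the other segment, and whose 10 leading genes held fewer than 3 markers of other classes. Named genes were the 4 members, the 3 genes of each list with most UMIs, the 2 changed most each way with at least 100 UMIs, the 5 most alike in pattern and the adjacent genes; 2 genes that this rule names are not reported here. Of 120 listed pathway genes 117 were matched by symbol; Bpnt2 is an alias of Impad1, and Sts and Hsd17b8 were not analysed here. Gene positions were matched by Ensembl ID to GENCODE vM21. Interval coverage and cell calling were checked on simulated data. The counts simulated for coverage were independent, as the interval assumes, so coverage where few cells hold many UMIs was not checked. Members and lists were chosen with earlier results of these data known.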

Additional observations from a re-analysis of the deposited data

Results flagged for a closer look

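Sult1e1 was also present in barcodes that were not called as cells, which no class above uses. These held 6 control and 628 JPI-289 UMIs, 0.299 and 37.8 CPM, a log2 ratio of 6.87 (95% counting interval 5.85 to 8.44). Per 100 PT marker UMIs, Sult1e1 had 1.23 in the uncalled JPI-289 barcodes and 1.21 in JPI-289 PT-like cells.

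The ratio of Sult1d1 between the libraries took opposite directions in different cell classes, each with an interval clear of 0, and the difference between classes was not tested. It was 1.41 in collecting duct principal-like cells, on 15 control and 77 JPI-289 UMIs. It was -0.49 in PT-like cells, -1.61 in distal tubule-like cells, -1.35 in podocyte-like cells, -0.68 in EC-like cells, -0.56 in macrophage-like cells and -1.05 in neutrophil-like cells. In principal-like cells the 57 control cells had a median of 8107 UMIs and the 377 JPI-289 cells 1534, and the PT marker level was 2.002% and 8.18% of that in the barcodes under 100 UMIs of the same library. Sult1d1 had 9.62 and 28.5 UMIs per 100 PT marker UMIs there, beside 9.12 and 23.2 in those barcodes.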

How the results depend on the processing

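The log2 ratios in PT-like cells were set beside 12 alternatives to cell calling, filters, clustering, scaling, free RNA and the value added before the log. Among these was a sum of all barcodes, which is not limited to PT-like cells. None of the 12 changed direction. Sult1e1 ranged from 6.84 to 7.76, Sult1a1 from -3.26 to -1.50, Sult1c2 from -2.46 to -1.91 and Sult1d1 from -0.77 to -0.30. Scaling to the PT markers, given above, was not among the 12, and by it Sult1d1 was higher in JPI-289. It had 6.72 UMIs per 100 PT marker UMIs in control PT-like cells and 16.7 in JPI-289 PT-like cells. Sult1c2 stayed lower in JPI-289 by that scaling, but only at 0.263 against 0.325. With all barcodes summed, Sult1e1 was 6.84, Sult1a1 -1.50, Sult1c2 -2.46 and Sult1d1 -0.77, each an end of its range above. Within PT-like cells the Sult1a1 ratio nearest to no difference was -1.94, with cells weighted equally. Sult1d1 was -0.60 with cells weighted equally and -0.30 centred on the median of all genes. With segments set by the score of each cell, Sult1d1 reversed to -0.55 in early cells and was -0.0293 in late cells; at a clustering resolution of 0.5 no JPI-289 cluster could be assigned, so that alternative gave no value. With at least 100 UMIs per gene, 7 pathway genes of 35 (20%) were 2-fold lower in place of 17 of 52 (32.7%). Unthinned shares of PT-like cells with a UMI were 7.34% for Sult1e1 in JPI-289, 1.52% for Sult1a1 in the control, 18.9% and 4.91% for Sult1c2, and 82.7% and 71.3% for Sult1d1 in the control and JPI-289; thinning to fewer UMIs lowers each by construction. With 1 mouse per condition, the spread between mice is unknown, and at these depths the 2 control UMIs of Sult1e1 and the 3 JPI-289 UMIs of Sult1a1 in PT-like cells leave their ratios wide.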
